A study of Mus musculus with 4 samples.

Results

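TRBJ2 segments are the J segments of the second D-J-C cluster of the mouse T-cell receptor beta locus. They were studied in T cells from pancreatic islets. A TRB contig (an assembled, productive, full-length beta chain transcript of a called cell) was included when its J segment was TRBJ2-1, TRBJ2-2, TRBJ2-3, TRBJ2-4, TRBJ2-5 or TRBJ2-7. These contigs numbered 9195 of 13709, or 67.1%. They made up 1389 of 1975 contigs in Tet2KO NOD 1, 1086 of 1696 in Tet2KO NOD 2, 4634 of 7076 in NOD 1 and 2086 of 2962 in NOD 2. Cells of a clone share 1 rearrangement, so segments were counted over clones: TRB contigs of a library formed a clone when V, J and CDR3 nucleotides all matched. The contigs fell into 5714 such clones, of 8562 TRB clones in all.

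The tested mice were Tet2KO NOD, which carry a Tet2-/- allele bred from the B6 background to NOD females over more than 14 generations. Tet2 encodes an enzyme that oxidises methylcytosine in DNA. They were set against NOD mice (labelled WT), a strain in which T cells destroy the insulin-producing cells of the islets. Each genotype gave 2 libraries, every one from the pooled islets of 4 to 6 animals. The design text gives an age of 10 to 13 weeks, while the protocol counts them from BTM, a term it does not explain, and mentions bone marrow transplant donors. It was therefore not settled whether the donors of the islets had been transplanted. Both genotypes share the NOD background, and the labels name no Cre or promoter that would limit the Tet2 loss to some cells. Pools were the replicates of a genotype, so genotype p-values rest on 2 pools each. Those for V partners and expanded clones compare clones within the 4 libraries, and their fits treated clones nearly as independent draws.

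The contig tables held between 85137263 and 220516119 reads a library, with between 1664 and 6835 called cells. Over 1 TRB was found in 652 of 13057 cells with a TRB, which can be doublets or cells with both alleles rearranged. Libraries shared 81 called barcodes in all, and 2 of these also carried the same TRB clone. No expression data were used here, so the T cells were not divided into subsets. The Tet2 deletion itself could not be checked from receptor contigs.

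A beta chain is made when a D segment joins a J segment and a V segment then joins the DJ unit. The RAG recombinase cuts beside each J at a recombination signal, a heptamer and a nonamer separated by a 12-base spacer. Bases are then trimmed from the ends and untemplated bases are added, so the CDR3 loop, which contacts the peptide, holds the 3′ end of V, what is left of D, added bases and the remainder of J. A TRBJ2 segment can take either D segment and is spliced to TRBC2, whereas TRBJ1 segments are spliced to TRBC1.

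All TRBJ2 segments lie on chromosome 6, plus strand, in GRCm38.p6, the build named in the submitters' processing notes. TRBJ2-1 spans chr6:41542754-41542803, TRBJ2-2 chr6:41542957-41543007 and TRBJ2-3 chr6:41543223-41543271. TRBJ2-4 spans chr6:41543362-41543410, TRBJ2-5 chr6:41543453-41543501 and TRBJ2-7 chr6:41543810-41543856. Each is a J exon between TRBD2 and TRBC2. The sequences below, from RefSeq, are shown because trimming and CDR3 length are read against them. Each line starts at the nonamer, and the capitals mark the part of the J segment that enters the CDR3 when nothing is trimmed.
TRBJ2-1: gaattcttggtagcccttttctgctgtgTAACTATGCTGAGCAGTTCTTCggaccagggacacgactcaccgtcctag
TRBJ2-2: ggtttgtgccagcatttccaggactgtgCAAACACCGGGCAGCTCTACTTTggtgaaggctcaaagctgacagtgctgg
TRBJ2-3: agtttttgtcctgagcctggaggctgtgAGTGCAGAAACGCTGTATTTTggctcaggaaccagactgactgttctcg
TRBJ2-4: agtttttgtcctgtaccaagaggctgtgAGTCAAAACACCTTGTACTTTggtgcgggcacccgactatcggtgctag
TRBJ2-5: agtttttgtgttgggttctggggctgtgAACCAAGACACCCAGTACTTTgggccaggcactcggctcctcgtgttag
TRBJ2-7: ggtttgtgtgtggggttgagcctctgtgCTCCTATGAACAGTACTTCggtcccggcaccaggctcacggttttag

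The CDR3 part measures 22 bases in TRBJ2-1, 23 in TRBJ2-2, 21 in TRBJ2-3, TRBJ2-4 and TRBJ2-5, and 19 in TRBJ2-7. TRBJ2-7 thus brings the shortest germline end and TRBJ2-2 the longest. The segments start between 577 bases (TRBJ2-1) and 1633 bases (TRBJ2-7) beyond the end of TRBD2. Read on the plus strand at the fixed position, and compared with the consensus heptamer CACTGTG, TRBJ2-2 and TRBJ2-7 match at 6 of 7 bases and the other members at 5. Compared with the consensus nonamer GGTTTTTGT, TRBJ2-3, TRBJ2-4, TRBJ2-5 and TRBJ2-7 match at 8 of 9 bases, TRBJ2-2 at 7 and TRBJ2-1 at 4. Of the 14 TRBJ segments read in this way, 1 holds the full heptamer and 0 the full nonamer. These signals are those of the reference genome, and the NOD sequence before each J segment was not checked. The germline end of the J segment beyond the CDR3 was identical to the contigs' own sequence in all contigs of 5 members and in 1644 of 1645 TRBJ2-5 contigs. TRBJ2-6, which is not a functional segment in the mouse, was named in 0 of 38761 contigs of any kind with a TRBJ, which allows a share of up to 0.00774% (3 contigs).

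TRBJ2-7 was the most used member. It made up 19.4% of TRB clones in Tet2KO NOD 1, 19.9% in Tet2KO NOD 2, 19.9% in NOD 1 and 22.1% in NOD 2, and ranked first of 12 TRBJ segments in each library. TRBJ2-5 followed at 12.8% and 11.3% in the Tet2KO NOD pools, against 12.2% and 13.1% in the NOD pools. TRBJ2-3 made up 11.4% and 11.6% of clones in the Tet2KO NOD pools, against 10.6% and 10.7% in the NOD pools. These last 2 segments exchanged places between libraries, while TRBJ2-7 stood apart from both.

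TRBJ2-1, the member nearest to TRBD2, made up 9.62% and 11.2% of clones in the Tet2KO NOD pools, against 9.96% and 11.1% in the NOD pools. TRBJ2-4 made up 9.06% and 7.86% in the Tet2KO NOD pools, against 8.07% and 6.26% in the NOD pools. TRBJ2-2, the rarest member, made up 5.42% and 4.84% in the Tet2KO NOD pools, against 5.19% and 4.81% in the NOD pools. Use did not follow genomic order, since the rarest member lies next to the one nearest to TRBD2 and the most used lies farthest away. The Wilson 95% intervals of these shares, which cover counting error only, had half-widths between 0.661 and 2.37 percentage points.

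Over the 4 libraries the order of mean clone shares was TRBJ2-7 (20.3% ± 1.23, SD, n = 4), TRBJ2-5 (12.4% ± 0.794), TRBJ2-3 (11.1% ± 0.481), TRBJ2-1 (10.5% ± 0.811), TRBJ2-4 (7.81% ± 1.16) and TRBJ2-2 (5.06% ± 0.293). The ranges of TRBJ2-5 and TRBJ2-3 overlapped, as did those of TRBJ2-3 and TRBJ2-1. The ranges of the other 3 pairs of neighbours did not overlap. In an exact sign-flip permutation test over 4 libraries, which cannot give a p below 0.13, each of those 3 pairs reached 0.13 (Benjamini-Hochberg 0.208 over 5 pairs). For comparison, the 6 TRBJ1 segments had mean shares between 2.52% and 9.24%.

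**Figure D1:**
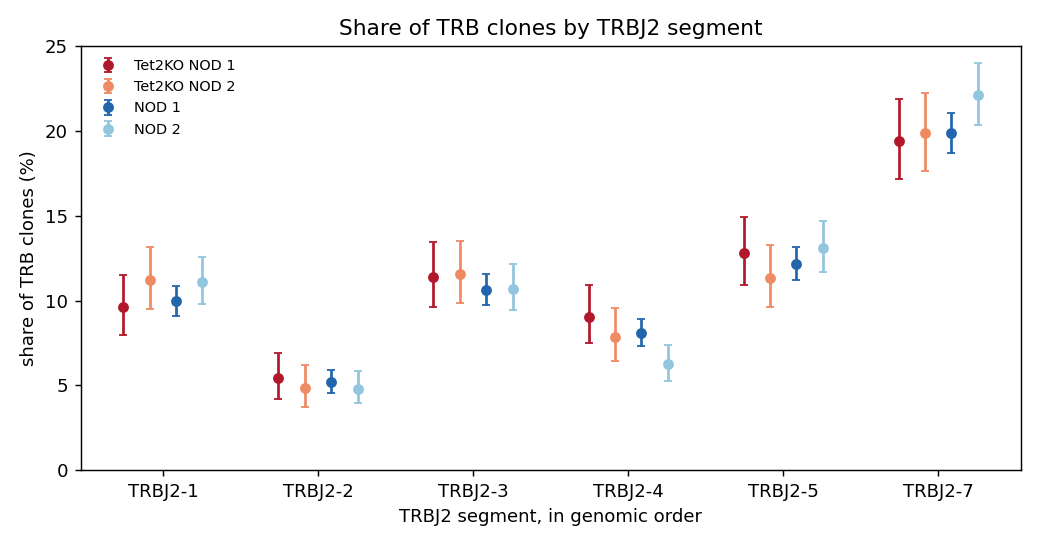
Share of TRB clones (%, y axis) for each TRBJ2 segment in genomic order (x axis), 1 point per library with its Wilson 95% interval. TRBJ2-7 lies between 19.4% and 22.1% in the 4 libraries, and TRBJ2-2 between 4.81% and 5.42%.

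Between genotypes the TRBJ2 share of clones was close. It was 67.7% and 66.7% in the Tet2KO NOD pools, against 65.9% and 68.2% in the NOD pools. The means were 67.2% ± 0.726 in Tet2KO NOD and 67.0% ± 1.62 in NOD (SD, n = 2 each), and the NOD libraries enclosed both Tet2KO NOD libraries. The difference of 0.171 percentage points had an exact two-sided permutation p of 1, where the smallest possible is 0.333. Its sign turned when each cell was counted, to a difference of -0.776 points.

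No member passed edgeR's quasi-likelihood test for a genotype difference in clone share. Over all 128 V and J segments of TRA and TRB that were tested, 0 were called at an adjusted p of 0.05 (0% called), 4 had an unadjusted p under 0.05, and DESeq2 also called 0. Without NOD 2, 1 segment was called, which was not a member. The members' log2 fold changes, Tet2KO NOD over NOD, were 0.01 for TRBJ2-1, 0.02 for TRBJ2-2, 0.11 for TRBJ2-3, 0.19 for TRBJ2-4, -0.06 for TRBJ2-5 and -0.08 for TRBJ2-7. Their median was 0.01, against -0.02 over all segments tested, and each adjusted p was 0.990. TRBJ2-3 was the 1 member of 6 whose genotypes did not overlap, and 28.9% of all segments tested had genotypes that did not overlap. Its shares were 11.5% ± 0.128 in Tet2KO NOD and 10.7% ± 0.0758 in NOD (SD, n = 2 each). In data simulated for this test of 128 segments, 24.5% of 1.5-fold changes and 70.25% of 2-fold changes were recovered.

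The members differed in how much of the J end was left. Bases lost were counted as the CDR3 part of the germline segment minus its longest run kept at the 3′ end of the CDR3. A base added by chance that equals the germline counts as kept, which lowers the values. The run ends at the first mismatch, so a changed or misread base inside J counts all bases before it as lost, which raises them. In Tet2KO NOD 2, 1 TRBJ2-4 clone was counted as losing 21 bases. The values are therefore not strict bounds on trimming. TRBJ2-3 lost 1.48 and 1.54 bases on average in the Tet2KO NOD pools, against 1.48 and 1.39 in the NOD pools, the fewest of the members in each library. TRBJ2-4 lost 1.80 and 2.27 in the Tet2KO NOD pools, against 2.64 and 2.18 in the NOD pools. TRBJ2-2 lost 2.74 and 2.41 in the Tet2KO NOD pools, against 2.28 and 2.79 in the NOD pools. The ranges of TRBJ2-4 and TRBJ2-2 overlapped, and both lay above that of TRBJ2-3.

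TRBJ2-5 lost 3.10 and 3.33 bases in the Tet2KO NOD pools, against 3.04 and 3.20 in the NOD pools. TRBJ2-1 lost 3.17 and 3.42 in the Tet2KO NOD pools, against 3.35 and 3.30 in the NOD pools. TRBJ2-7 lost 3.51 and 3.29 in the Tet2KO NOD pools, against 3.77 and 3.72 in the NOD pools. Among the 6 members TRBJ2-7 had the highest mean loss, 3.57 ± 0.218 bases (SD, n = 4), but its range overlapped those of TRBJ2-1 and TRBJ2-5, and in Tet2KO NOD 2 it lay below both. Mean losses of the TRBJ1 segments lay between 1.23 and 4.50 bases.

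An intact J end was common in 2 members. It was seen in 48.4% and 47.8% of TRBJ2-3 clones in the Tet2KO NOD pools, against 46.3% and 47.2% in the NOD pools. In TRBJ2-4 it was seen in 42.3% and 42.9% of clones in the Tet2KO NOD pools, against 35.7% and 39.2% in the NOD pools. In the reference genome TRBJ2-5 shares its heptamer, GGCTGTG, with both. TRBJ2-5 had an intact end in 17.5% and 16.0% of clones in the Tet2KO NOD pools, against 18.6% and 16.8% in the NOD pools. In the other members an intact end was found in 11.7% to 28.0% of clones of a library.

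The distribution of losses had a shape of its own in each segment. In TRBJ2-7 a loss of exactly 4 bases was the most frequent outcome in each of the 4 libraries, at 23.5% ± 2.63 of clones (SD, n = 4), ahead of an intact end at 20.7% ± 2.60. In TRBJ2-1 a loss of 3 bases was the most frequent in 3 of 4 libraries, at 18.0% ± 2.63. Losses of 5 or more bases were found in 32.5% ± 5.12 of TRBJ2-7 clones, 31.6% ± 2.29 of TRBJ2-5 clones and 31.4% ± 3.08 of TRBJ2-1 clones. They were found in 18.2% ± 5.26 of TRBJ2-4 clones, 13.6% ± 2.89 of TRBJ2-2 clones and 8.88% ± 1.86 of TRBJ2-3 clones.

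**Figure D2:**
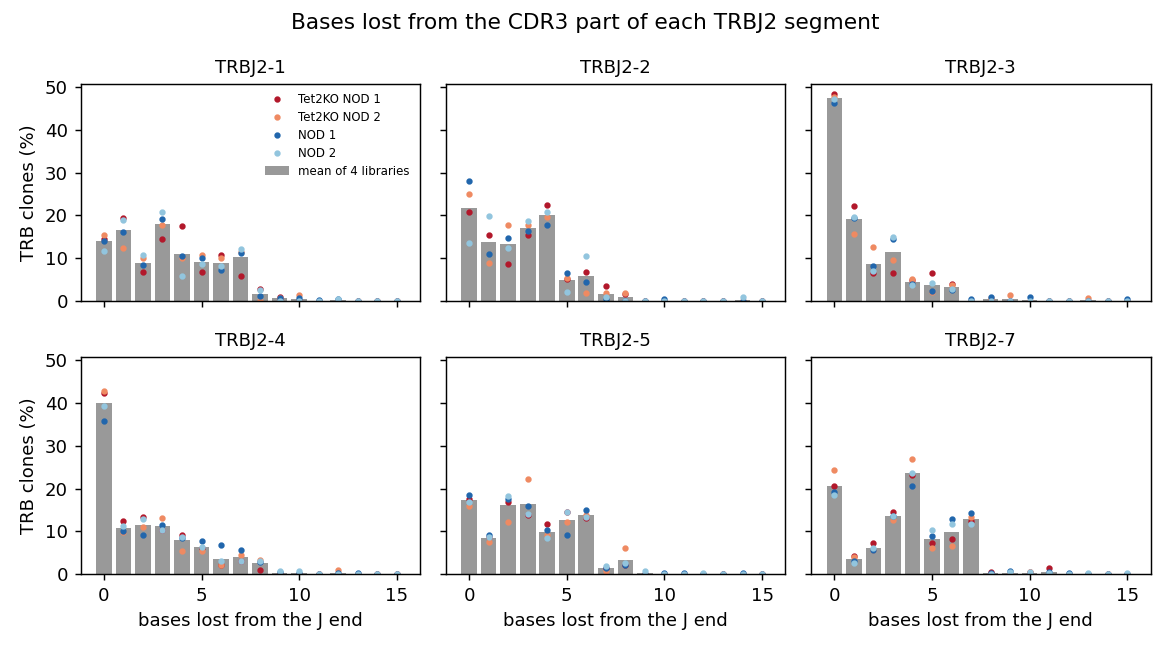
Bases lost from the CDR3 part of the J segment (x axis) against the share of TRB clones of that segment (%, y axis). Bars are means of 4 libraries and points are single libraries. An intact end (0 bases) holds 47.4% of TRBJ2-3 and 40.0% of TRBJ2-4 clones, while TRBJ2-7 peaks at 4 bases with 23.5%. Losses above 15 bases, in a few clones, are not drawn.

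Each member was also set against all other TRBJ clones of the same library. The difference in bases lost was -1.55 ± 0.139 for TRBJ2-3 (SD of the within-library difference, n = 4), -0.678 ± 0.341 for TRBJ2-4 and -0.306 ± 0.268 for TRBJ2-2, each lower in 4 of 4 libraries. TRBJ2-7 lost 0.912 ± 0.203 more bases, TRBJ2-1 0.518 ± 0.138 more and TRBJ2-5 0.366 ± 0.182 more, each higher in 4 of 4 libraries. All 6 comparisons reached the exact sign-flip p of 0.13, the smallest that 4 libraries allow (Benjamini-Hochberg 0.141 over 18 comparisons). No such test can pass 0.05.

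CDR3 loops with TRBJ2-7 were the shortest of the 6 members, while mean loops of the TRBJ1 segments lay between 13.3 and 14.4 amino acids. Their mean length was 13.3 and 13.5 amino acids in the Tet2KO NOD pools, against 13.3 and 13.3 in the NOD pools. TRBJ2-3 loops measured 14.7 and 14.7 in the Tet2KO NOD pools, against 14.8 and 14.7 in the NOD pools. TRBJ2-2 loops measured 14.3 and 14.8 in the Tet2KO NOD pools, against 14.8 and 14.7 in the NOD pools. The range of TRBJ2-7 lay below that of every other member, and those of TRBJ2-2 and TRBJ2-3 overlapped.

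The remaining members lay between. Mean lengths over 4 libraries were 14.34 ± 0.0747 amino acids for TRBJ2-1, 14.29 ± 0.216 for TRBJ2-4 and 14.09 ± 0.0982 for TRBJ2-5 (SD, n = 4 each). Within libraries the difference of TRBJ2-7 loops from those of all other TRBJ clones was -0.839 ± 0.108 amino acids, and they were shorter in 4 of 4 libraries. TRBJ2-3 loops were 0.757 ± 0.0619 longer, TRBJ2-2 loops 0.653 ± 0.240 longer, TRBJ2-1 loops 0.361 ± 0.0752 longer and TRBJ2-4 loops 0.300 ± 0.248 longer, each in 4 of 4 libraries. These 5 comparisons again stood at the smallest exact p of 0.13 (Benjamini-Hochberg 0.141). TRBJ2-5 loops were longer in 2 of 4 libraries, with a difference of 0.0867 ± 0.111 and an exact p of 0.5 (Benjamini-Hochberg 0.5).

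The CDR3 bases not counted as J varied less between members than the J bases did. They averaged 24.6 in TRBJ2-7, 24.5 in TRBJ2-3, 24.4 in TRBJ2-5, 24.3 in TRBJ2-1, 24.1 in TRBJ2-4 and 23.5 in TRBJ2-2, against 22.9 in TRBJ1 clones. TRBJ2-7 and TRBJ2-3, the shortest and the longest loops, thus had nearly the same number of non-J bases. Loops of 17 or more amino acids made up 1.19% ± 0.779 of TRBJ2-7 clones and 8.26% ± 1.18 of TRBJ2-3 clones. Loops of 11 or fewer made up 7.64% ± 2.23 of TRBJ2-7 clones and 2.12% ± 0.679 of TRBJ2-3 clones.

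**Figure D3:**
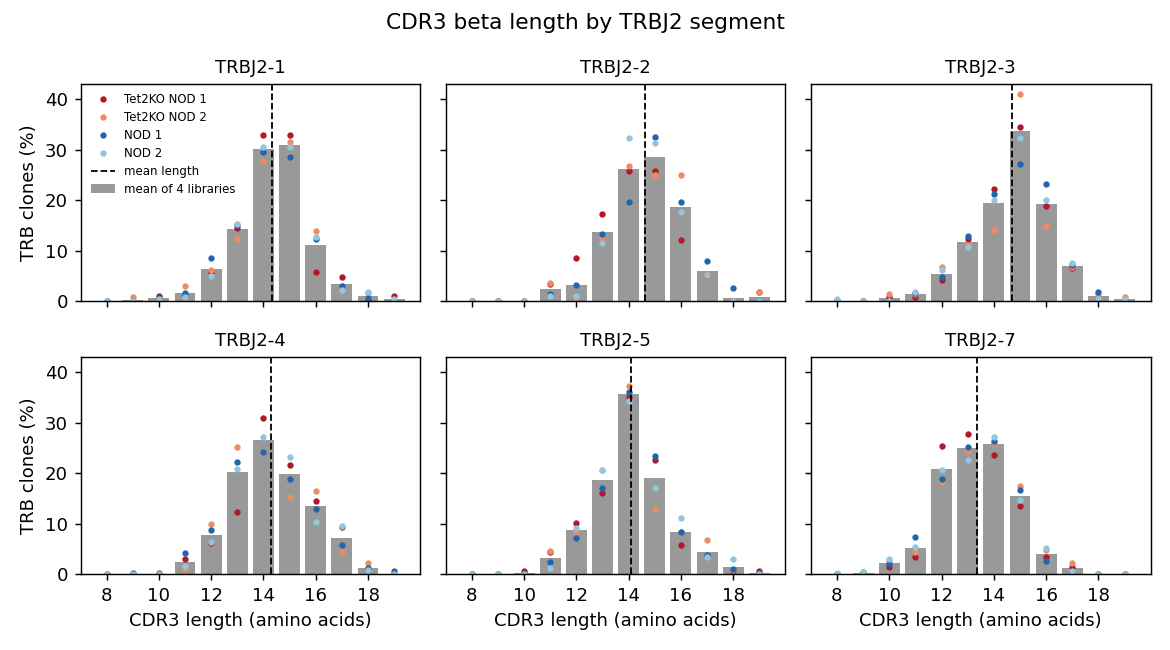
CDR3 beta length (amino acids, x axis) against the share of TRB clones of each TRBJ2 segment (%, y axis). Bars are means of 4 libraries, points are single libraries and the dashed line is the mean length, lowest in TRBJ2-7 at 13.35 and highest in TRBJ2-3 at 14.69. The few clones under 8 or over 19 amino acids are not drawn.

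Of 35 values compared between genotypes (shares, loop lengths, bases lost and expansion of the members and the cluster), 10 did not overlap (28.6%), against 28.9% of all 128 segments tested for usage. TRBJ2-7 lost 3.40 ± 0.158 J bases in Tet2KO NOD and 3.74 ± 0.0325 in NOD (SD, n = 2 each), with no overlap. TRBJ2-5 loops measured 14.01 ± 0.0214 amino acids in Tet2KO NOD and 14.17 ± 0.0292 in NOD, also with no overlap, and TRBJ2-3 loops measured 14.66 ± 0.000692 in Tet2KO NOD and 14.72 ± 0.0604 in NOD. Over the whole cluster the loss was 2.79 ± 0.0545 bases in Tet2KO NOD and 2.96 ± 0.0218 in NOD. Each had an exact permutation p of 0.333, the smallest that 2 libraries a genotype allow, and 0.864 after Benjamini-Hochberg adjustment over 35 comparisons.

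Of the V segments joined to each J, the partner with the smallest adjusted p was TRBV15 with TRBJ2-7. TRBV15 was joined to 13.0% and 6.52% of TRBJ2-7 clones in the Tet2KO NOD pools, against 7.32% and 7.92% in the NOD pools. Among clones with any other TRBJ, TRBV15 made up 5.33% and 4.53% in the Tet2KO NOD pools, against 3.91% and 4.50% in the NOD pools. It was therefore higher with TRBJ2-7 in 4 of 4 libraries, in 140 clones of 128 distinct CDR3 amino acid sequences. The log2 fold change was 0.90 (SE 0.16), with an adjusted p of 3.0e-05 by edgeR's quasi-likelihood test with library as a block. The call was lost only when each cell was counted (adjusted p = 0.134), and held in the other 13 of 14 alternatives. With TRBJ2-2, a pair chosen after its values were seen, TRBV15 made up 8.62% and 8.93% in the Tet2KO NOD pools, against 5.78% and 9.38% in the NOD pools. It lay above the share with other TRBJ in 4 of 4 libraries, but on 32 clones it was not called (0.57, SE 0.28, adjusted p = 0.397).

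Loops that joined TRBV15 to TRBJ2-7 averaged 12.8 amino acids, against 13.6 for TRBV15 with any other TRBJ. This is not particular to TRBV15, since over all V the within-library difference of TRBJ2-7 loops was -0.839 ± 0.108. Of the 140 clones 29 held 2 or more cells, and the largest held 32. Among all TRBJ2-7 clones of a library, 12.2% to 20.7% held 2 or more cells. Non-productive contigs of called cells were not required to be full length. Among them TRBV15 made up 18 of 244 with TRBJ2-7, or 7.38%, against 5.40% with other TRBJ. These are shares of contigs, not counted once per clone, and they were not tested.

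In all, 125 V partners were tested over the 6 members and 5 were called (4.00% called): 1 for TRBJ2-2, 1 for TRBJ2-3, 2 for TRBJ2-5, 1 for TRBJ2-7 and 0 for TRBJ2-1 and TRBJ2-4. At an unadjusted p under 0.05, TRBJ2-1 had 0 partners and TRBJ2-4 had 2. TRBV16 rose with TRBJ2-5 (log2 fold change 0.71, SE 0.12, adjusted p = 0.0018), in 107 clones and 4 of 4 libraries. TRBV13-1 rose with TRBJ2-3 (0.51, SE 0.090, adjusted p = 0.036), in 108 clones and 4 of 4 libraries. TRBV15 fell with TRBJ2-5 (-0.88, SE 0.21, adjusted p = 0.035), in 31 clones and 3 of 4 libraries. TRBV17 rose with TRBJ2-2 (1.43, SE 0.42, adjusted p = 0.036), on 17 clones and in 3 of 4 libraries.

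DESeq2 made none of these last 4 calls, and none was made without NOD 1, the library with the most clones; in both settings the number of calls was 1. Each kept its direction in 14 of 14 alternatives, but the call held in only 10 of 14 for TRBV16 with TRBJ2-5, 9 for TRBV17 with TRBJ2-2, 8 for TRBV13-1 with TRBJ2-3 and 8 for TRBV15 with TRBJ2-5. Their highest adjusted p over the alternatives were 0.902, 0.897, 0.633 and 0.902 in that order. For TRBV15, a higher share with TRBJ2-7 and a lower share with TRBJ2-5 are not independent results, because each segment's clones are in the other's comparison group. Among non-productive contigs TRBV13-1 made up 3.39% with TRBJ2-3, against 4.83% with other TRBJ, the reverse of its call. TRBV16 made up 8.68% with TRBJ2-5 (4.36% with other TRBJ) and TRBV17 13.8% with TRBJ2-2 (2.40%). TRBV15 made up 4.55% with TRBJ2-5 (5.88%). These shares of contigs were not tested.

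**Figure D4:**
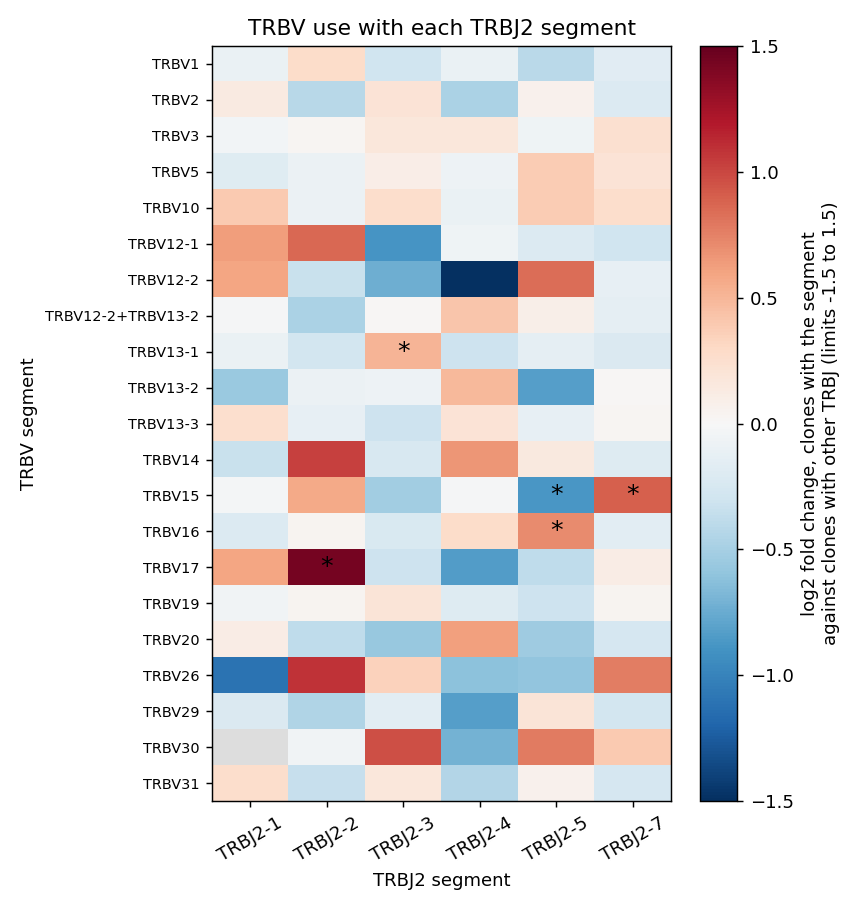
Log2 fold change of the share of each TRBV (rows) among clones with a TRBJ2 segment (columns), over its share among clones with any other TRBJ, from edgeR with library as a block. Stars mark the 5 partners with an adjusted p under 0.05, such as TRBV15 with TRBJ2-7 at 0.90; grey was not tested, and colours end at 1.5 on either side.

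The most used partner was the joined name TRBV12-2+TRBV13-2, kept as the files give it, for TRBJ2-4 (14.8% ± 2.82 of clones, SD, n = 4), TRBJ2-1 (12.2% ± 4.54) and TRBJ2-3 (11.3% ± 1.58). It was TRBV5 for TRBJ2-5 (12.7% ± 1.30) and TRBJ2-7 (10.8% ± 2.13), and TRBV19 for TRBJ2-2 (9.48% ± 3.26). These ranks depend on the naming, since TRBV13-2 was also counted under its own name. Mean shares of the joined name and of TRBV13-2 were 12.0% and 1.47% for TRBJ2-5, and 10.4% and 2.72% for TRBJ2-7. For TRBJ2-2 they were 7.61% and 2.85%. Counted with TRBV13-2, the joined name would come first for these members too. Profiles were compared by the sum of absolute differences in mean TRBV share over 22 TRBV. TRBJ2-1 and TRBJ2-3 were closest to each other, at 18.0 percentage points. TRBJ2-5 and TRBJ2-7 were closest to TRBJ2-1, at 19.7 and 18.8 points, and TRBJ2-2 and TRBJ2-4 to TRBJ2-7, at 23.8 and 22.6 points. The nearest profile of each member was thus another TRBJ2 segment, and the farthest was TRBJ1-2 in all 6, at 39.9 to 57.3 points. These sums grow as clones become fewer, since counting error adds to them.

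No V-J pair passed the test for a genotype difference. Of 80 pairs tested 55 held a TRBJ2 segment, and edgeR called 0 (0% called), with 2 at an unadjusted p under 0.05. TRBV2 with TRBJ2-7 was found in 5 and 6 clones in the Tet2KO NOD pools, against 57 and 21 in the NOD pools. These were 0.467% and 0.518% of TRB clones in the Tet2KO NOD pools, against 1.31% and 1.05% in the NOD pools, so the genotypes did not overlap; neither did they in 31 of the 80 pairs (38.8%). TRBV2 among clones with any other TRBJ was also lower, at 5.21% and 4.09% in the Tet2KO NOD pools, against 6.56% and 5.85% in the NOD pools. The log2 fold change of the pair was -1.31 (SE 0.40) with an adjusted p of 0.363, between 0.184 and 0.996 over the alternatives.

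TRBV2 with TRBJ2-1 made up 0.373% and 0.432% of clones in the Tet2KO NOD pools, against 0.738% and 0.701% in the NOD pools (log2 fold change -0.84, SE 0.33, adjusted p = 0.941). TRBV13-1 with TRBJ2-4 made up 1.12% and 0.604% in the Tet2KO NOD pools, against 0.461% and 0.300% in the NOD pools (1.04, SE 0.36, adjusted p = 0.747). TRBV5 with TRBJ2-4 made up 1.03% and 0.950% in the Tet2KO NOD pools, against 0.554% and 0.701% in the NOD pools (0.71, SE 0.28, adjusted p = 0.941). The median log2 fold change of TRBJ2 pairs was -0.12, against -0.11 over all pairs. In data simulated for these 80 pairs, 29.5% of 2-fold and 69.0% of 3-fold changes were recovered.

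Clone size was described by expansion. An expanded clone had 2 or more cells. Expanded clones made up 19.9% and 15.5% of TRBJ2 clones in the Tet2KO NOD pools, against 15.2% and 13.9% in the NOD pools. The genotypes did not overlap, with means of 17.7% ± 3.05 in Tet2KO NOD and 14.5% ± 0.901 in NOD (SD, n = 2 each, exact permutation p = 0.333, the smallest possible). The number of cells differed too, at 1957 and 1664 called cells in the Tet2KO NOD pools, against 6835 and 2889 in the NOD pools, and its part in this difference was not tested. TRBJ1 clones were expanded in 18.5% ± 2.40 in Tet2KO NOD and 13.6% ± 0.551 in NOD.

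By member, TRBJ2-4 clones were expanded in 19.6% and 19.8% in the Tet2KO NOD pools, against 14.3% and 18.4% in the NOD pools. TRBJ2-7 clones were expanded in 20.7% and 17.8% in the Tet2KO NOD pools, against 18.0% and 12.2% in the NOD pools. TRBJ2-3 clones were expanded in 22.1% and 11.2% in Tet2KO NOD, which enclosed the 15.2% and 14.5% in NOD. For the other members the share lay between 10.2% and 19.0% in the 4 libraries. Wilson 95% intervals had half-widths between 2.56 and 9.96 points.

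**Figure D5:**
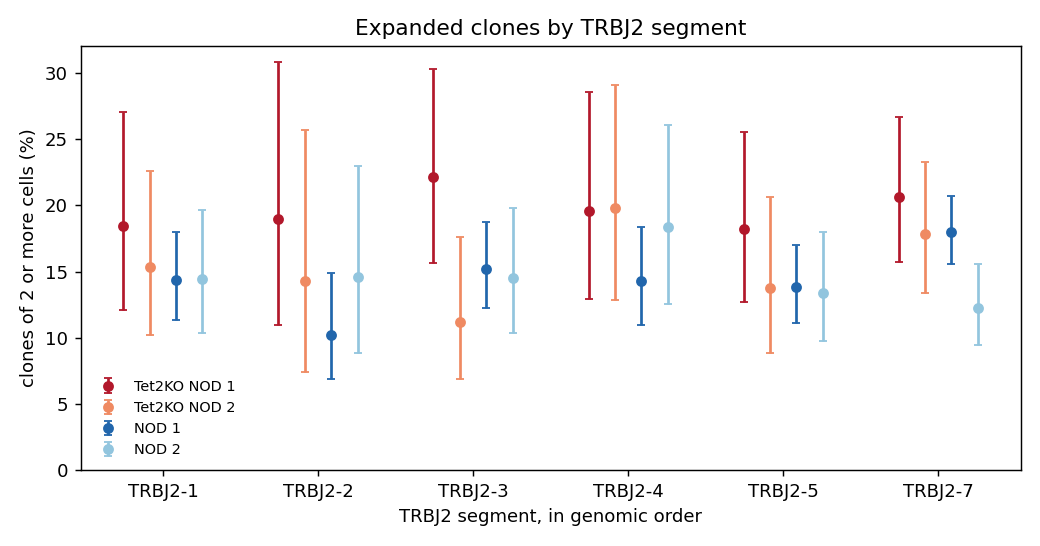
Share of clones with 2 or more cells (%, y axis) for each TRBJ2 segment in genomic order (x axis), 1 point per library with its Wilson 95% interval. The values lie between 10.2% and 22.1%.

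Within libraries, expanded clones were compared with clones of 1 cell. Of 33 TRBV and TRBJ segments tested 3 were called (9.09% called), all TRBV, and 9 had an unadjusted p under 0.05. No segment was called without Tet2KO NOD 2, without NOD 1 or without NOD 2. Of the 6 members 0 were called by edgeR and 0 had an unadjusted p under 0.05. The log2 fold changes, expanded over 1 cell, were 0.16 for TRBJ2-7, 0.12 for TRBJ2-4, 0.00 for TRBJ2-3, -0.03 for TRBJ2-1, -0.12 for TRBJ2-5 and -0.30 for TRBJ2-2. Their adjusted p-values lay between 0.250 and 0.999.

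Large clones used every member. Of 5714 TRBJ2 clones 86 had 10 or more cells, and these together held 1846 cells. For comparison, 37 of 2848 TRBJ1 clones had 10 or more cells, and the largest TRBJ1 clone held 166. The large TRBJ2 clones were 33 of 1741 clones with TRBJ2-7, 19 of 887 with TRBJ2-1 and 14 of 1058 with TRBJ2-5. With TRBJ2-4 they were 10 of 663, with TRBJ2-3 6 of 930 and with TRBJ2-2 4 of 435. Of the 33 with TRBJ2-7, 25 were in NOD 1, the largest library. The CDR3 of the largest clone of each member is given below to show how differently the J end was kept in them, with the kept J bases in capitals. As these are cell counts of single pools, they describe those pools.
TRBJ2-1 with TRBV16: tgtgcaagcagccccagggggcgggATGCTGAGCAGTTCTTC
TRBJ2-2 with TRBV1: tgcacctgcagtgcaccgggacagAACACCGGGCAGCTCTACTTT
TRBJ2-3 with TRBV5: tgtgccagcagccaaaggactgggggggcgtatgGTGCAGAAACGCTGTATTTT
TRBJ2-4 with TRBV31: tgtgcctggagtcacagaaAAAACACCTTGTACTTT
TRBJ2-5 with TRBV20: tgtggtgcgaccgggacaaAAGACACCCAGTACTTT
TRBJ2-7 with TRBV3: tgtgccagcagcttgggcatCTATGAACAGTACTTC

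The TRBJ2-1 clone held 61 cells in NOD 2, or 2.15% of the cells of that library with a TRB, and had lost 5 J bases. The TRBJ2-5 clone held 51 cells in Tet2KO NOD 1 (2.67%) and the TRBJ2-7 clone 38 cells in the same library (1.99%). The TRBJ2-4 clone held 43 cells in NOD 2, the TRBJ2-2 clone 40 cells in NOD 1 and the TRBJ2-3 clone 32 cells in NOD 1. Each of these clones was found in 1 library only. Their loops ran from 12 amino acids in the TRBJ2-4, TRBJ2-5 and TRBJ2-7 clones to 18 in the TRBJ2-3 clone.

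Few clones recurred between libraries. Of 5662 distinct TRBJ2 clones 47 were found in over 1 library, or 0.830% (Wilson 95% interval 0.625% to 1.10%). For TRBJ1 clones it was 18 of 2827, or 0.637% (0.403% to 1.00%), so the 2 intervals overlapped. By member the share was highest for TRBJ2-7, with 22 of 1715 (1.28%, 0.849% to 1.93%), and lowest for TRBJ2-4, with 2 of 661 (0.303%, 0.0830% to 1.10%). TRBJ2-1 had 4 of 883, TRBJ2-2 5 of 429, TRBJ2-3 3 of 927 and TRBJ2-5 11 of 1047. Of 4 found in 3 or more libraries, the 3 with the most cells are shown to let their joins be read; capitals mark the kept J bases. The other, TRBJ2-7 with TRBV13-2, held 0 and 1 cells in the Tet2KO NOD pools, against 2 and 1 cells in the NOD pools. It had 30 bases, had lost 4 J bases and was found in the same 3 libraries as the second clone below. Whether only the V name separates these clones was not tested.
TRBJ2-7 with TRBV12-2+TRBV13-2, first: tgtgccagcggtgaCTATGAACAGTACTTC
TRBJ2-7 with TRBV12-2+TRBV13-2, second: tgtgccagcggtgatTATGAACAGTACTTC
TRBJ2-2 with TRBV5: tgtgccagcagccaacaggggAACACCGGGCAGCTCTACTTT

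The first was found in 2 and 2 cells in the Tet2KO NOD pools, against 22 and 1 cells in the NOD pools, and so in all 4 libraries. The second was found in 0 and 6 cells in the Tet2KO NOD pools, against 13 and 13 in the NOD pools. The TRBJ2-2 clone was found in 2 and 1 cells in the Tet2KO NOD pools, against 6 and 0 in the NOD pools. Both TRBJ2-7 sequences have 30 bases, shorter than the mean loop of their segment. They differ at 1 base (gac against gat) and encode the same CDR3 amino acids under the same V name. They are thus separate clones by nucleotides only. Pairs of libraries shared between 2 and 17 TRBJ2 clones, with 17 both for Tet2KO NOD 1 with NOD 1 and for Tet2KO NOD 2 with NOD 2, the pairs with the same set number. NOD 1 and NOD 2 shared 14, and Tet2KO NOD 1 and Tet2KO NOD 2 shared 2. The same pairs shared between 4 and 30 called barcodes, highest for NOD 1 with NOD 2, and the part of carry-over between libraries was not tested.

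The constant segment followed the J cluster. Of the 9195 TRBJ2 contigs 9177 carried TRBC2, 0 carried TRBC1 and 18 had no constant segment named, while 4486 of 4514 TRBJ1 contigs carried TRBC1. A D segment was named in few contigs. Of the TRBJ2 contigs 1104 were assigned TRBD1, 988 TRBD2 and 7103 none. TRBJ1 contigs were assigned TRBD1 in 936 and TRBD2 in 14.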

How the data were processed

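Single-cell receptor libraries were assembled with Cell Ranger 7.0.1, per the submitters' processing notes; the sources used here do not name its V(D)J segment set. The deposited tables give read counts and UMI counts (molecules) per contig, per the file headers. Contig length in bases was also deposited and entered no test. Called cells with high-confidence, full-length, productive TRB contigs were kept, and clones were compared. Members and lists were chosen with earlier results of these data known.

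Counts of clones were tested with edgeR 4.0.16 (R 4.3.3; offset log number of clones; counts of at least 10 in 2 libraries, or at least 5 in 2 of 8 columns for V partners and expanded clones; Benjamini-Hochberg), with DESeq2 1.42.0 as an alternative. Standard errors are approximate. Per-library values were compared by exact permutation with Python 3.11.15. The common dispersion of the fits lay between 9.77e-05 and 0.0135, so clones were treated nearly as independent draws. The fits for genotype, V-J pairs and expanded clones were tested on simulated data. Of the V partner fits only that of TRBJ2-7 was, with adjustment over its 21 TRBV rather than all 125 partners. There 65.0% of 2-fold changes were recovered, and 5.06% to 7.14% of calls were false across the fold changes simulated. Named pairs were the top partner, those passing, and, where none passed, the 2 higher and 2 lower with the smallest p; named clones were each member's largest and the 3 in the most libraries, ties going to more cells. Alternatives were other tests, filters, clone definitions and left-out libraries.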

Additional observations from a re-analysis of the deposited data

Results flagged for a closer look

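Non-productive TRB contigs of called cells were in none of the comparisons between genotypes. TRBJ2 members made up 68.6% and 64.5% of them in the Tet2KO NOD pools, against 59.6% and 61.3% in the NOD pools, so both Tet2KO NOD libraries lay above both NOD libraries, with means of 66.5% in Tet2KO NOD and 60.5% in NOD. Counted once per productive clone of the cell, the shares were 62.3% and 63.0% in the Tet2KO NOD pools, against 64.3% and 61.6% in the NOD pools, and the genotypes overlapped. The most TRBJ2 contigs of this kind found in cells of 1 productive clone were 14 and 4 in the Tet2KO NOD pools, against 35 and 17 in the NOD pools.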

How the results depend on the processing

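Of 707 values under an alternative, 624 were counted as kept. For numbers of calls, kept meant equal or close to the main number. For the rest it meant the same direction and side of the threshold. Values compared by an exact test cannot pass it with so few libraries, so for these only the direction was at stake; it held in all 120 alternatives to the within-library differences in CDR3 length and J bases lost. No TRBJ2 member or named pair passed the genotype test under any alternative run. The cause of the changes below was not tested. With 2 libraries a genotype, counts of clones limit precision.

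The 5 calls among V partners became 1 with DESeq2, 1 with only clones of 1 cell, 2 when each cell was counted, and 1 to 5 when each library was left out in turn. Segments called by genotype numbered 0 to 1 on leaving out a library, with the 1 call made without NOD 2 and not a TRBJ2 member. The 3 calls among expanded clones became 1 when expanded meant 3 or more cells, and 0 to 4 on leaving out a library. The difference in TRBJ2 clone share, Tet2KO NOD minus NOD, was -0.776 points when each cell was counted, -0.000376 when clones were set by CDR3 amino acids, and -0.972 to 1.31 on leaving out a library. With set numbers taken as a replicate block it was 0.171 points, and the 2 genotype fits called 0 segments and 0 pairs; the numbers are not stated to pair the samples, and 2 pairs are too few to show it.

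Log2 fold changes of clone share by genotype that changed sign were, for TRBJ2-1, -0.00712 with DESeq2, -0.0100 with TMM factors, -0.00452 when each cell was counted and -0.0188 with the replicate block. For TRBJ2-2 they were -0.182 when each cell was counted, -0.00609 with clones by amino acids, -0.00464 without clones found in over 1 library and -0.00235 with only clones of 1 cell. Counting each cell gave -0.0278 for TRBJ2-3, 0.165 for TRBJ2-5 and -0.133 for TRBV5 with TRBJ2-4. Leaving out a library gave -0.114 to 0.109 for TRBJ2-1, -0.0623 to 0.101 for TRBJ2-2 and -0.150 to 0.0274 for TRBJ2-5. Log2 fold changes in expanded clones turned for TRBJ2-1 with only cells with 1 TRB (0.0786) and without clones found in over 1 library (0.0110). They turned for TRBJ2-3 with DESeq2 (-0.0136) and with clones by amino acids (-0.0162), and for TRBJ2-4 with 3 or more cells (-0.0429). Leaving out a library gave -0.0474 to 0.0913 for TRBJ2-3 and -0.00876 to 0.263 for TRBJ2-7.

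Genotype differences that turned in CDR3 length (amino acids) were TRBJ2-1 without barcodes called in over 1 library (-0.0131) and, on leaving out a library, TRBJ2-1 (-0.0835 to 0.0900), TRBJ2-2 (-0.448 to 0.0264), TRBJ2-4 (-0.0909 to 0.323) and TRBJ2-7 (-0.00141 to 0.192). In J bases lost, TRBJ2-1 with only cells with 1 TRB gave 0.0174, and counting each cell gave -0.0732 for TRBJ2-3 and -0.138 for TRBJ2-5. Leaving out a library gave -0.149 to 0.0997 for TRBJ2-1, -0.216 to 0.292 for TRBJ2-2 and -0.0207 to 0.205 for TRBJ2-5. The TRBJ2-1 share of cells differed by 0.334 points with only cells with 1 TRB, 0.523 without clones found in over 1 library and -1.99 to 1.81 on leaving out a library. On leaving out a library the share of cells ran from -0.564 to 0.165 points for TRBJ2-3 and -0.483 to 0.889 for TRBJ2-4, and the share of expanded clones from -3.66 to 7.28 for TRBJ2-3. Leaving out clones found in over 1 library, joining clones that differ at 1 base and keeping only clones of 1 cell were chosen after seeing the data.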

Other observations

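Among non-productive TRB contigs of called cells, TRBJ2-7 was less frequent than among productive ones. It made up 15.7% and 19.8% in the Tet2KO NOD pools, against 12.3% and 16.0% in the NOD pools, with a mean of 16.0% ± 3.05 (SD, n = 4), against 20.8% ± 1.15 of productive contigs. The non-productive share was lower in 4 of 4 libraries. TRBJ2-5 made up 24.5% and 12.2% in the Tet2KO NOD pools, against 13.8% and 11.3% in the NOD pools. The other members had mean shares of 10.1% ± 2.90 (TRBJ2-3), 9.24% ± 1.27 (TRBJ2-1), 8.58% ± 1.91 (TRBJ2-4) and 4.16% ± 1.28 (TRBJ2-2). Productive contigs had to be full length, whereas non-productive ones did not, so the 2 sets passed unlike filters. These are shares of contigs, in which expanded clones weigh more, and they were not tested.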
